A study of Mus musculus with 8 samples.

Results

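A set of 10 genes for cell surface proteins that are used to define mesenchymal stem cells was followed in cultures of mouse adipose-derived stem cells (ADSCs), namely Thy1, Eng, Cd44, Cd34, Ly6a, Nt5e, Vcam1, Mcam, Alcam and Cd9. They were chosen by symbol, without a cut-off on a measured value, but with earlier results of these data known. All 10 were found among the 24346 genes listed, and all 10 were among the 18862 genes above 0 in at least 1 library, which were tested. In GRCm38 they are protein-coding genes on chromosomes 1 (Cd34), 2 (Eng and Cd44), 3 (Vcam1), 6 (Cd9), 9 (Thy1, Nt5e and Mcam), 15 (Ly6a, from 74994877 to 74998031) and 16 (Alcam). Transcripts of Thy1, Eng, Vcam1 and Mcam were lower in 3D than in 2D cultures, and those of Cd9 were higher. Those of Ly6a also passed as higher, but the cultures overlapped and the call was lost under 12 of 18 alternative fits. Cd44, Cd34, Nt5e and Alcam did not pass the test.

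Total RNA was sequenced from 8 primary cultures of gonadal adipose tissue of wild-type, 12-week-old male BALB/c mice, labelled as mesenchymal stem cells. In the 2D group, cells of mice 2, 3, 4 and 5 were grown conventionally, 1 library per mouse. In the 3D group, cells of mice 1, 4, 5 and 7 were embedded in Matrigel, a basement membrane extract, and grew as organoids. The conditioned medium and the passage of the sequenced cultures are not given in the sources used here. Both culture types were sequenced from mice 4 and 5. The methods name no sorting or cloning of the cells, so that a culture can hold more than 1 cell type.

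Mesenchymal stem cells have no single defining surface protein and are recognized by a panel of adhesion molecules, co-receptors and enzymes. Thy1 (CD90) is a glycolipid-anchored immunoglobulin-like protein of fibroblastic cells, Eng (endoglin, CD105) a co-receptor for TGF-beta, and Cd44 the main receptor for hyaluronan. In mice, Ly6a (Sca-1) and Cd34 mark stem and progenitor cells of adipose tissue. Many of these proteins also occur on endothelial, epithelial or blood cells, so that each is informative only within a panel.

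Upstream sequences are shown for Eng and Cd9, members that changed in opposite directions without overlap between the cultures. They run 5′ to 3′ and stop before the first base of the GENCODE gene model, and the capitals mark the GC box GGGCGG and the E-box CACCTG on either strand. The Eng sequence lies at chr2:32646345-32646594 (plus strand) and that of Cd9 at chr6:125494792-125495010 (minus strand) of GRCm38.p6.
Eng: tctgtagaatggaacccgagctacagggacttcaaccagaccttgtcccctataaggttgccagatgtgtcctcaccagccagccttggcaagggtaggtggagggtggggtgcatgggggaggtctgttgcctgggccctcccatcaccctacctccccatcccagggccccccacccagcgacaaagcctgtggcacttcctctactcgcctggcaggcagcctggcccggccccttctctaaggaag
Cd9: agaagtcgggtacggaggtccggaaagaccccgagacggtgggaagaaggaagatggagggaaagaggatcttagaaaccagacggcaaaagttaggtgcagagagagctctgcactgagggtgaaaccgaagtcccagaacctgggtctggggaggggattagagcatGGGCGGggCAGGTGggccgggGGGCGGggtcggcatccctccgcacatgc
The Cd9 sequence held 2 GC boxes and 1 E-box, and the Eng sequence held neither.

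RefSeq promoters, taken as the 250 bases before the start, were found for 7 of the 10 members. Thy1, Ly6a and Vcam1 are named only. A GC box was present in 4 of the 7 (Mcam with 5, Nt5e with 4, Cd9 and Alcam with 2 each), and in 32.7% of 32851 mouse promoters of this length. The E-box CACCTG was found in 3 of the 7 (Mcam, Alcam and Cd9) and in 17.2% of all promoters. RefSeq and GENCODE starts differ, and these windows were not trimmed. Those of Nt5e and Alcam lay wholly inside the GENCODE gene, as did most of the Mcam window and 31 bases of the Cd9 window. The Eng window lay wholly upstream, so that the members were not scanned over like stretches. Members that changed in the same direction did not share a motif count, since Eng held no GC box and Mcam held 5, while both were lower in 3D. Such matches describe letters and not binding.

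The deposited values are FPKM (fragments per kilobase of transcript, scaled to all mapped fragments of a library), and levels below are FPKM after quantile normalization, with fold changes on the log2(FPKM + 1) scale, which understates the change of low genes. Depth was estimated at 16.4 M to 17.3 M fragments in 2D and 14.45 M to 15.55 M in 3D libraries, and each library had between 15378 and 16134 genes above 0.

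The labelled cell type was checked against marker lists. Of 12 stromal markers, 11 were lower in 3D, and Lum, at most 0.988 FPKM in any library, did not pass. The largest falls were those of Col1a2, Postn and Col1a1, matrix proteins at 675 to 2032, 233 to 1288 and 260 to 635 FPKM in 2D and under 1 FPKM in 3D. The summed stromal level lay between 2098 and 4530 FPKM in 2D and between 4.78 and 8.71 FPKM in 3D, where Pdgfrb, a defining receptor of stromal cells, was listed at 0 in all 4 libraries. Most of the 3D sum was Twist1, a transcription factor, at 4.59 to 7.99 FPKM in 3D and 19.3 to 31.6 FPKM in 2D. Of 15 epithelial markers, 14 were higher in 3D and Krt18 did not pass, with sums of 32.5 to 697 FPKM in 2D and 3089 to 3645 FPKM in 3D. Epcam, an adhesion protein of epithelial cells, reached at most 0.0504 FPKM in 2D but lay between 265 and 494 FPKM in 3D. Cldn4, a tight junction protein, and Cdh1, the epithelial cadherin, had the next largest rises, from at most 0.621 and 0.716 FPKM in 2D to at least 248 and 276 FPKM in 3D. By these lists, the 3D libraries held few stromal transcripts of the labelled cell type and many epithelial ones. Both shifts accompany every difference between 2D and 3D below, and their part in these results was not tested. In bulk RNA, fewer cells of a type and less RNA per cell cannot be told apart.

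Libraries within each group also stood apart. The 9 tested mesothelial markers summed in 2D to 27.8 FPKM (mouse 2) and 28.6 FPKM (mouse 5), but to 888 FPKM (mouse 3) and 2266 FPKM (mouse 4). In 3D the lowest sum was 91.1 FPKM, and no library reached the level of 2D mouse 3. Of these 3D sums, Krt19, also an epithelial marker, gave most. The 3D library of mouse 1 stood apart in Ly6a, although a Dixon outlier test on each member by culture (20 groups) flagged none. Results are therefore given with all libraries and, where a call or direction depends on them, without these. The pairs of 2D libraries left out were chosen after the data were seen. Endothelial markers summed to between 1.07 and 6.82 FPKM in 2D and at most 0.202 FPKM in 3D, with Cdh5 at 0 in every 3D library and at most 0.164 FPKM in 2D. Kdr gave most of the sums of 2D mice 3 and 4, at 3.92 and 6.34 FPKM, against 0.188 and 0.155 FPKM in mice 2 and 5. The blood cell marker Ptprc stayed at or under 0.0779 FPKM, although Cd14 and Cd68, found on macrophages and other cells, were higher in 3D, so that the summed blood cell list lay between 5.06 and 11.5 FPKM in 2D and between 124 and 170 FPKM in 3D. Csf1r did not pass (limma's adjusted p = 0.129). It was at 0.486 to 1.44 FPKM in 2D, at 0.264 FPKM in 3D mouse 1 and at 3.40 to 7.65 FPKM in the other 3D libraries. Adgre1 was at 0 and Itgam at most 0.0317 FPKM in 3D.

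**Figure D1:**
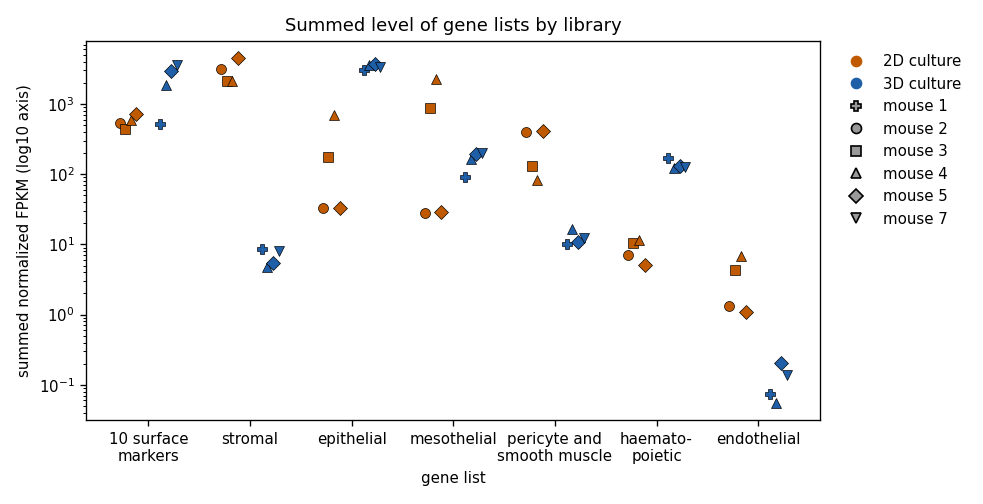
Summed quantile-normalized FPKM (log10 axis) of the 10 surface markers and of 6 marker lists in each library, with 2D in orange and 3D in blue and 1 symbol per mouse. Stromal sums lie between 2098 and 4530 FPKM in 2D and between 4.78 and 8.71 FPKM in 3D, and the mesothelial sums of the 2D libraries of mice 3 and 4 (888 and 2266 FPKM) lie far above those of mice 2 and 5.

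The 10 surface markers did not move as a block. At limma's adjusted p under 0.05, 4 of 10 were lower in 3D, against 20.3% of all genes tested, and 2 of 10 were higher, against 21.2%. In 6 of 10 (Thy1, Eng, Nt5e, Vcam1, Mcam and Cd9) the libraries of the culture types did not overlap, against 42.5% of all genes. The median log2 fold change was -1.21 for the 10 members and 0.00 for all genes. Their summed level was 445 to 710 FPKM in 2D. In 3D, mouse 1 had 512 FPKM, while mice 4, 5 and 7 had 1871 to 3533 FPKM, most of it from Ly6a.

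**Figure D2:**
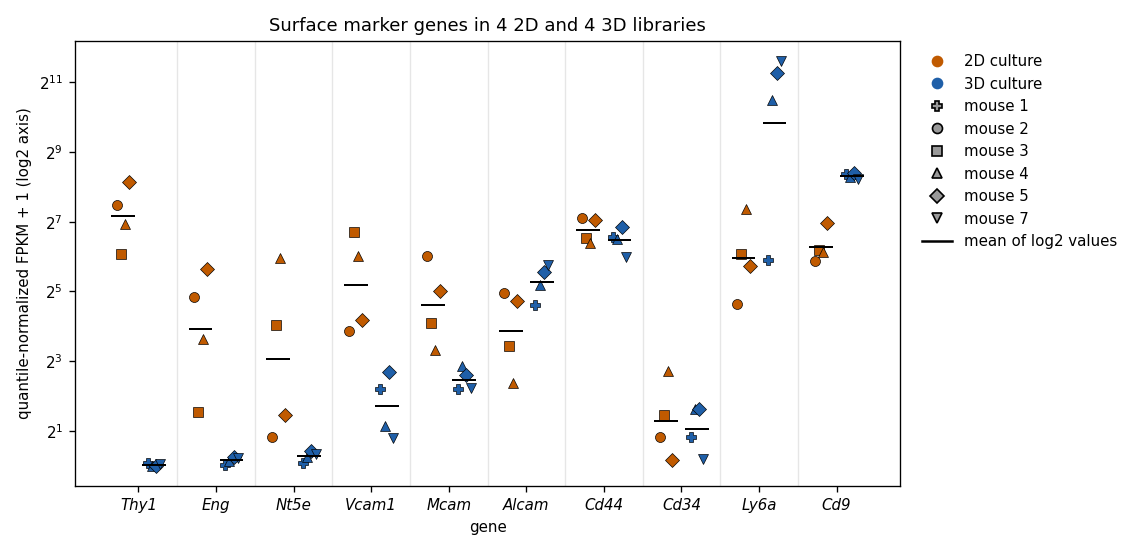
Quantile-normalized FPKM + 1 (log2 axis) of the 10 surface marker genes in the 4 2D (orange) and 4 3D (blue) libraries, with 1 symbol per mouse and bars at the mean of the log2 values. Thy1 lies at 66.5 FPKM or more in 2D and at 0.0554 FPKM or less in 3D, and Ly6a in 3D falls into 3 libraries at 1429 FPKM or more and the library of mouse 1 at 58.6 FPKM.

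The order of the levels differed between the cultures. In 2D the mean FPKM fell in the order Thy1, Cd44, Cd9, Ly6a, Vcam1, Mcam, Eng, Nt5e, Alcam and Cd34, and the ranges of every pair of neighbours in this order overlapped. Levels in 3D fell in the order Ly6a, Cd9, Cd44, Alcam, Mcam, Vcam1, Cd34, Nt5e, Eng and Thy1. Here Cd9 lay above Cd44, Cd44 above Alcam and Alcam above Mcam in every library without overlap of their ranges, while the other neighbours overlapped. Thy1 thus stood first by mean level in 2D and last in 3D. FPKM accounts for transcript length, which allows a rough comparison of levels between genes. The first and last ranks in 3D are less certain. Reads of Ly6a can be split between related genes, and Eng and Thy1 rest on about 32 and 6 fragments in the 4 libraries together.

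Among the immunoglobulin-like adhesion proteins, Thy1 differed most. Its gene lies on chromosome 9, from 44043384 to 44048579 on the plus strand of GRCm38. Thy1 was at 178, 66.5, 121 and 279 FPKM in the 2D libraries from mice 2, 3, 4 and 5, a mean of 161 ± 90.8 (SD, n = 4). In the 3D libraries of mice 1, 4, 5 and 7 it was at 0.0554, 0, 0 and 0.0427 FPKM, or 0.0245 ± 0.0288 (SD, n = 4). Every 2D library was high, ranking above 94.0% or more of the genes tested, and the 3D libraries were at or near 0 without overlap.

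The log2 fold change of Thy1, 3D minus 2D, was -7.12 (95% confidence interval -8.03 to -6.21, limma's adjusted p = 9.07e-06). At the estimated depth, its 3D values correspond to about 6 fragments in the 4 libraries together, against 3570 to 17200 fragments in single 2D libraries. The deposited means of 200.5 FPKM in 2D and 0.0316 FPKM in 3D gave a ratio of 6353, with a counting interval of 2722 to 16142 that covers counting error only. Thy1 passed in each fit that left out 1 library, with adjusted p between 8.28e-06 and 8.55e-05. Within mouse 4 the difference was -6.94 and within mouse 5 it was -8.13 on the log2 scale. Blocking on the mouse leaves 1 residual degree of freedom and gave an adjusted p of 0.111.

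Vcam1, an adhesion protein that binds integrins of white blood cells and is also made by mesenchymal and mesothelial cells, was lower in 3D. It was at 13.6, 104, 63.5 and 17.1 FPKM in the 2D libraries from mice 2, 3, 4 and 5 (49.5 ± 42.8, SD, n = 4). The 3D libraries of mice 1, 4, 5 and 7 had 3.62, 1.21, 5.46 and 0.759 FPKM (2.76 ± 2.19, SD, n = 4). The cultures did not overlap, and the 2D libraries of mice 3 and 4, which carried the mesothelial markers, were the highest. The change, as log2 of 3D over 2D, was -3.48 (95% confidence interval -5.17 to -1.78, limma's adjusted p = 0.00662). Without the 2D libraries of mice 3 and 4 it was -2.29, and without those of mice 2 and 5 it was -4.46. Within mouse 4 the difference was -4.87 and within mouse 5 it was -1.49, and with the mouse as a block the adjusted p was 0.264.

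Mcam (CD146), an adhesion protein of pericytes, endothelium and smooth muscle, was also lower in 3D. In 2D it was at 64.1, 15.9, 9.04 and 31.5 FPKM in mice 2, 3, 4 and 5 (30.1 ± 24.5, SD, n = 4). In 3D it was at 3.59, 6.29, 5.06 and 3.72 FPKM in mice 1, 4, 5 and 7 (4.66 ± 1.27, SD, n = 4). The groups did not overlap, but the lowest 2D library, of mouse 4, was close to the highest 3D library, of the same mouse. On the log2 scale the difference between cultures was -2.14 (95% confidence interval -3.39 to -0.88, limma's adjusted p = 0.0149). Within mouse 4 it was -0.46 and within mouse 5 it was -2.42. The adjusted p was 0.340 with the mouse as a block, so that the call was lost, and 0.215 over mice 4 and 5 alone.

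Pericyte and smooth muscle markers were mixed. Of 8 such genes, 4 were lower in 3D (Cnn1, Myh11, Des and, outside the naming rule and chosen after its value was seen, Rgs5), 1 was higher (Notch3), 3 did not pass, and the list summed to 83.3 to 417 FPKM in 2D and at most 16.6 FPKM in 3D. Most of the 2D sum was Cnn1, a calponin of contractile cells, at 71.3 to 393 FPKM, highest in the libraries of mice 2 and 5, where Mcam was also highest. The part of such cells in the Mcam result was not tested. Rgs5, Kcnj8 and Abcc9, which mark pericytes, were under 1 FPKM in every library.

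Alcam (CD166), an adhesion protein that binds itself and CD6, did not pass the test. It was at 30.2, 9.78, 4.18 and 25.5 FPKM in the 2D libraries from mice 2, 3, 4 and 5 (17.4 ± 12.4, SD, n = 4). The 3D libraries of mice 1, 4, 5 and 7 had 23.7, 35.2, 45.8 and 52.8 FPKM (39.4 ± 12.7, SD, n = 4). The cultures overlapped, because the 2D libraries of mice 2 and 5 lay above the 3D library of mouse 1. Fitted over all libraries, the log2 fold change was 1.40 (95% confidence interval 0.06 to 2.75, limma's adjusted p = 0.0904). Without the 2D libraries of mice 2 and 5 it was 2.27 with an adjusted p of 0.00909, and without the 2D library of mouse 2 alone it was 1.73 with an adjusted p of 0.0475. These were the 2D libraries with the highest values, and the pair was picked after the values were seen. Leaving them out raises the fold change in any case, so that the lower adjusted p is no evidence of a rise. Without the 2D libraries of mice 3 and 4 the log2 fold change was 0.42 (adjusted p = 0.344).

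Eng, the TGF-beta co-receptor, was lower in 3D. In the 2D libraries of mice 2, 3, 4 and 5 it was at 27.8, 1.90, 11.4 and 49.1 FPKM (22.5 ± 20.7, SD, n = 4). In the 3D libraries of mice 1, 4, 5 and 7 it was at 0.0218, 0.0995, 0.189 and 0.176 FPKM (0.121 ± 0.0772, SD, n = 4). No library of a culture type reached the other, although the 2D levels themselves spanned 25.8-fold, with mice 3 and 4 below mice 2 and 5.

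The log2 fold change of Eng was -3.75 (95% confidence interval -5.61 to -1.89, limma's adjusted p = 0.00719). Its 3D values rest on about 32 fragments in the 4 libraries, and the ratio of deposited means was 192, with a counting interval of 137 to 282 for counting error only. The difference was -3.50 within mouse 4 and -5.40 within mouse 5. Without the 2D libraries of mice 3 and 4 it was -5.05, and without those of mice 2 and 5 it was -2.44 (adjusted p = 0.0187). The adjusted p was 0.136 with the mouse as a block.

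Cd44, the hyaluronan receptor, was abundant in both cultures. In 2D it was at 137, 91.4, 82.9 and 131 FPKM in mice 2, 3, 4 and 5 (110.6 ± 27.4, SD, n = 4). In 3D it was at 93.6, 90.3, 115 and 62.9 FPKM in mice 1, 4, 5 and 7 (90.4 ± 21.4, SD, n = 4). The groups overlapped, and every library ranked above 93.6% or more of the genes tested. Its fitted log2 fold change was -0.29 (95% confidence interval -0.82 to 0.25, limma's adjusted p = 0.362), and the difference was 0.12 within mouse 4 and -0.18 within mouse 5.

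The call on Cd44 depended on the normalization. In the values as deposited, Cd44 was between 92.7 and 180 FPKM in 2D and between 52.9 and 89.7 FPKM in 3D without overlap, and the log2 fold change was -0.84 with an adjusted p of 0.0314. With a common upper quartile it was -0.78 with an adjusted p of 0.0364. The scalings differ for genes of that level, since the median log2 fold change of the 1416 genes with a mean of 50 to 500 FPKM was 0.00 after quantile normalization, -0.49 as deposited and -0.43 with a common upper quartile. Cd44 lay below this median under all 3 scalings. Without the 2D libraries of mice 2 and 5 its direction turned, to 0.02 on the log2 scale.

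Cd34, a sialomucin of blood progenitors, endothelium and fresh adipose stromal cells, was the lowest member in 2D. It was at 0.794, 1.77, 5.62 and 0.122 FPKM in the 2D libraries from mice 2, 3, 4 and 5 (2.08 ± 2.46, SD, n = 4). In 3D, mice 1, 4, 5 and 7 had 0.765, 2.10, 2.09 and 0.159 FPKM (1.28 ± 0.974, SD, n = 4). The ranges overlapped almost fully, and the differences within mice 4 and 5 had opposite signs, -1.09 and 1.46. In log2 terms, 3D minus 2D was -0.23 (95% confidence interval -1.57 to 1.11, limma's adjusted p = 0.767). Its sign turned under 7 of 18 alternatives, so that no direction is given. A difference of 1 log2 unit either way lies within the interval.

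Nt5e (CD73), the surface enzyme that makes adenosine from AMP, did not pass the test, although no 3D library reached a 2D library. It was at 0.790, 15.5, 60.6 and 1.77 FPKM in the 2D libraries from mice 2, 3, 4 and 5 (19.7 ± 28.1, SD, n = 4). The 3D libraries of mice 1, 4, 5 and 7 had 0.0626, 0.205, 0.350 and 0.276 FPKM (0.223 ± 0.123, SD, n = 4). The 2D levels spanned 76.7-fold, and the 2D libraries of mice 3 and 4, with the mesothelial markers, were the high ones.

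The log2 fold change of Nt5e was -2.79 (95% confidence interval -5.23 to -0.35, limma's adjusted p = 0.0680). Leaving out either pair of 2D libraries gave adjusted p under 0.05, 0.0163 without mice 3 and 4 (log2 fold change -0.89) and 0.00155 without mice 2 and 5 (-4.62). So did leaving out the 2D library of mouse 2 (-3.52, adjusted p = 0.0261), a pseudocount of 0.1 (-4.38, adjusted p = 0.0211) and a minimum mean of 1 FPKM (adjusted p = 0.0452). The pairs were picked after the values were seen, and Nt5e itself follows their split. Leaving out either pair removes much of its 2D spread in any case, so that the lower adjusted p is no evidence of a fall. Mouse 2 was the lowest 2D library, and its omission enlarges the fall in any case. Nt5e did not pass in the other 13 of 18 alternatives. Among them were the mouse block (adjusted p = 0.341), mice 4 and 5 alone (0.247), the omission of 2D mouse 3 (0.143) and the values as deposited (0.0923). Within mouse 4 the difference was -5.68 and within mouse 5 it was -1.04. The 3D values correspond to about 129 fragments in all.

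Ly6a (Sca-1), a glycolipid-anchored protein of the Ly6 family that marks mouse stem and progenitor cells, was the most abundant member in 3D. In the 2D libraries of mice 2, 3, 4 and 5 it was at 24.0, 66.1, 165 and 52.0 FPKM (76.8 ± 61.4, SD, n = 4). In 3D it was at 58.6 FPKM in mouse 1 and at 1429, 2473 and 3117 FPKM in mice 4, 5 and 7 (1769 ± 1336, SD, n = 4). The 3D library of mouse 1 lay inside the 2D range, and the other 3D libraries lay above every 2D library and above 99.7% or more of the genes tested.

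The log2 fold change of Ly6a was 3.86 (95% confidence interval 0.90 to 6.82, limma's adjusted p = 0.0432). Without the 3D library of mouse 1 it was 5.14 with an adjusted p of 0.000926. That library was the lowest in 3D, and leaving it out raises the fold change in any case. The lower adjusted p is therefore no evidence of a rise. The call was lost under 12 of 18 alternatives, all with the same direction, among them the values as deposited (3.50, adjusted p = 0.0570), the upper quartile (3.56, adjusted p = 0.0548), and the omission of either pair of 2D libraries (adjusted p = 0.0804 without mice 3 and 4, and 0.218 without mice 2 and 5). The call held in 2 of the 8 fits that left out 1 library, those without 3D mouse 1 and without 2D mouse 4 (4.36, adjusted p = 0.0464). The library of 2D mouse 4 was the highest in 2D, so that its omission also raises the fold change in any case. The 6 in which it was lost were those without 2D mouse 2, 3 or 5 and those without 3D mouse 4, 5 or 7, with adjusted p up to 0.105. Within mouse 4 the difference was 3.10, within mouse 5 it was 5.54, and with the mouse as a block the adjusted p was 0.156. Ly6a is a short gene in a family of closely related copies on chromosome 15, between which reads can be split, so that its level is uncertain.

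Cd9, a tetraspanin that organizes integrins and other proteins in the membrane and is common on epithelial cells, was higher in 3D. It was at 57.2, 72.0, 68.6 and 123 FPKM in the 2D libraries from mice 2, 3, 4 and 5 (80.2 ± 29.2, SD, n = 4). In the 3D libraries of mice 1, 4, 5 and 7 it was at 328, 307, 339 and 295 FPKM (317 ± 19.6, SD, n = 4). The lowest 3D library lay well above the highest 2D library, and the 3D levels differed by only 1.15-fold.

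The log2 fold change of Cd9 was 2.03 (95% confidence interval 1.52 to 2.54, limma's adjusted p = 0.000260), about 4.08-fold. In the values as deposited it was 1.51. It passed in all 8 fits that left out 1 library, with adjusted p between 2.34e-05 and 0.00146. Within mouse 4 the difference was 2.15, within mouse 5 it was 1.45, and with the mouse as a block the adjusted p was 0.129. The 14 epithelial markers that were higher in 3D moved with Cd9, and their part in its level was not tested.

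**Figure D3:**
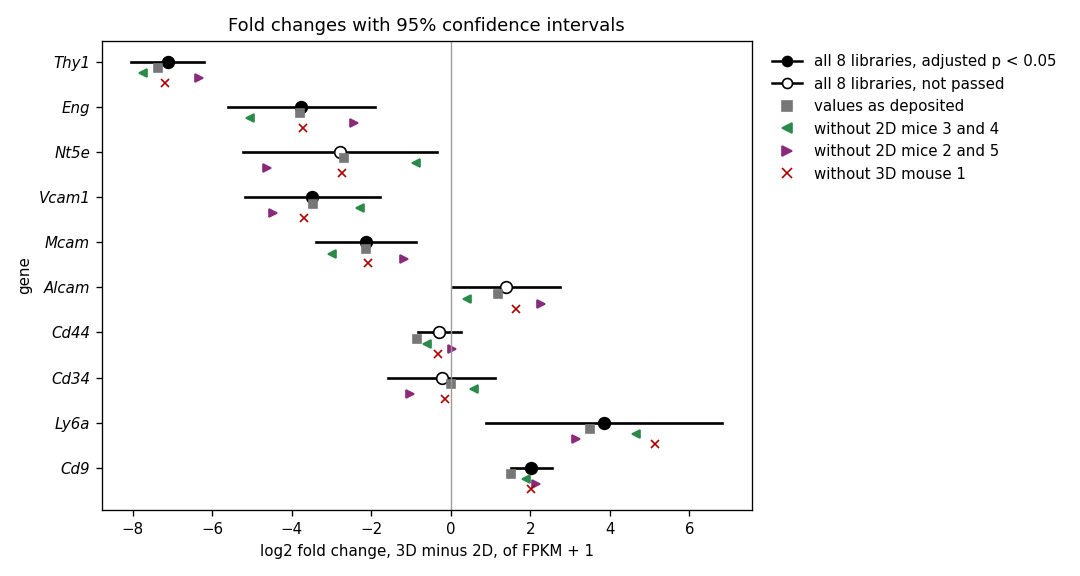
Log2 fold changes of FPKM + 1, 3D minus 2D, with 95% confidence intervals for each surface marker gene (filled circles passed limma's adjusted threshold, open circles did not) and the values under 4 alternatives. The intervals of Thy1, Eng, Vcam1, Mcam and Nt5e lie below 0 and those of Cd9, Ly6a and Alcam above it. Nt5e and Alcam did not pass after adjustment over all genes. The values of Nt5e run from -0.89 to -4.62 with the 2D libraries left out.

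The members varied widely among the 2D libraries. In mice 2 and 5, both libraries lay above both of mice 3 and 4 for Thy1, Eng, Cd44, Mcam and Alcam, and below both for Cd34, Ly6a, Nt5e and Vcam1. Of the 12583 genes that averaged 1 FPKM or more, 33.6% lay above and 29.4% below in the same sense. Cd34, Ly6a, Nt5e and Vcam1 were thus highest in the libraries with the mesothelial markers, whose part in this was not tested. Thy1 averaged 228 FPKM in mice 2 and 5 and 94.0 FPKM in mice 3 and 4, whereas Nt5e averaged 1.28 and 38.1 FPKM. This split was seen in the data and was given no test.

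Measured by the SD of log2 values over the 2D libraries, 8 members spread more than 93.6% or more of the 12583 genes. Nt5e had an SD of 2.36 and Eng of 1.79, against a median of 0.23 over genes, while Cd44 (0.36) and Cd9 (0.47) were the most even. In 3D the SD of Ly6a was 2.65, above that of 99.3% of genes, and those of Vcam1 (0.88) and Cd34 (0.69) followed. Cd9 had one of 0.09 there, against a median of 0.22. On this scale low genes vary little, which applies to Thy1, Eng and Nt5e in 3D.

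A further 16 surface proteins that are used on mesenchymal cells were read from the same fit. Of these, 5 were lower in 3D, against 20.3% of all genes tested, and 3 higher, against 21.2%, and their median log2 fold change was -0.45. Itga5, the fibronectin receptor subunit, fell from between 126 and 445 FPKM in 2D to between 0.251 and 1.29 FPKM in 3D (log2 fold change -7.21, limma's adjusted p = 9.14e-06). Cd248 (endosialin), a stromal and pericyte protein, was at 24.0 to 71.9 FPKM in 2D and at most 0.0119 FPKM in 3D (limma's adjusted p = 1.82e-05).

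Pdgfrb, a growth factor receptor that the stromal list also holds, was at 14.3 to 44.4 FPKM in 2D and listed at 0 in 3D (limma's adjusted p = 2.20e-05). Pdgfra, likewise in both lists, and Itgb1, the shared beta chain of many integrins, were the other lower genes, named after their values were seen. Itgb1 was at 737 to 1027 FPKM in 2D and at 179 to 249 FPKM in 3D, so that it remained abundant.

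Of the wider panel, the higher genes were Cd24a, Bst2 and Dpp4. Cd24a, a mucin-like protein found on epithelial and immature cells, rose from between 6.36 and 58.0 FPKM to between 694 and 1027 FPKM (log2 fold change 5.13, limma's adjusted p = 0.000681). Bst2 (tetherin), an interferon-induced membrane protein, was at 13.8 to 52.6 FPKM in 2D, at 59.6 FPKM in 3D mouse 1 and at 682 to 932 FPKM in the other 3D libraries (3.80, limma's adjusted p = 0.0105). Like Ly6a, it was lowest in mouse 1 among the 3D libraries. Dpp4 (CD26), a surface peptidase, was at 0.0558 to 0.812 FPKM in 2D and at 1.10 to 6.09 FPKM in 3D (1.55, limma's adjusted p = 0.0230).

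Binding partners, ligands and relatives of the members formed a list of 40 genes, of which 15 were lower in 3D, 4 higher and 21 did not pass, with a median log2 fold change of -0.22. Of all genes tested, 20.3% were lower and 21.2% higher. For Eng, the partner receptor Acvrl1 (ALK1) fell by 3.23 on the log2 scale, from between 4.43 and 16.2 FPKM to between 0.0758 and 0.304 FPKM (limma's adjusted p = 0.000337). For Cd44, the hyaluronan synthase Has2 fell by 3.32, from at least 4.99 FPKM in 2D to between 0.0792 and 0.808 FPKM (limma's adjusted p = 0.000581). Has3, a further synthase named after its value was seen, was higher by 0.61 and stayed under 3 FPKM. Both enzymes make the ligand of Cd44, and they changed in opposite directions.

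Integrin Itgb3, whose alpha-v heterodimer binds Thy1, fell by 3.50, from between 5.70 and 16.1 FPKM to between 0.0210 and 0.0761 FPKM (limma's adjusted p = 5.86e-05). Adora1, a receptor for the adenosine that Nt5e makes, was at most 0.00268 FPKM in 2D and at 11.7 to 29.5 FPKM in 3D (limma's adjusted p = 1.30e-05). Cd82, a tetraspanin related to Cd9, rose from between 5.29 and 20.5 FPKM to between 58.1 and 106.5 FPKM (log2 fold change 2.89, limma's adjusted p = 0.00111). The other tetraspanins of the list, named after their values were seen, did not follow it. Cd63 was lower, at 437 to 561 FPKM in 2D and 140 to 276 FPKM in 3D (-1.37, limma's adjusted p = 0.00134), and Cd81 (0.23, adjusted p = 0.391) and Cd151 (-0.22, adjusted p = 0.464) did not pass.

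Ly6e, which lies in the same cluster as Ly6a on chromosome 15, was at 73.1, 35.2, 28.0 and 71.4 FPKM in the 2D libraries from mice 2, 3, 4 and 5. In the 3D libraries of mice 1, 4, 5 and 7 it was at 244, 752, 1165 and 1256 FPKM. The groups did not overlap, and mouse 1 was again the lowest 3D library. As a log2 fold change, this was 3.89 (limma's adjusted p = 0.00125). Ly6c1, another gene of this cluster, was at 1.95 to 28.9 FPKM in 3D and 4.85 to 25.5 FPKM in 2D and did not pass (0.09, adjusted p = 0.930).

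**Figure D4:**
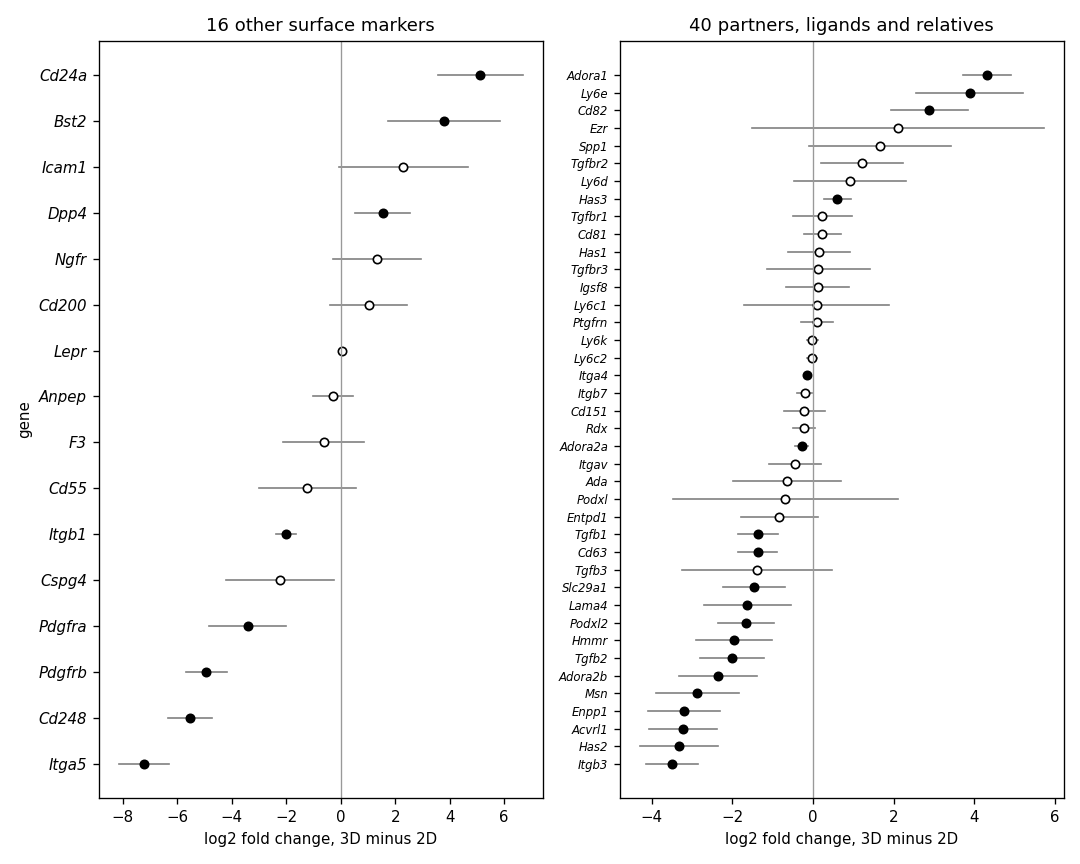
Log2 fold changes of FPKM + 1, 3D minus 2D, with 95% confidence intervals for the 16 other surface markers (left) and the 40 partners, ligands and relatives (right), ordered by size, with filled circles for genes past limma's adjusted threshold. Genes past it lie on both sides of 0 in each list, 5 lower and 3 higher on the left and 15 lower and 4 higher on the right.

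With the mouse as a block, no gene of either list passed, and the counts of 5 and 3 and of 15 and 4 each became 0. Without the 2D libraries of mice 2 and 5 the wider panel had 8 genes lower and 1 higher, and without those of mice 3 and 4 the partner list had 7 genes higher. The shares of all genes called in these fits are not given here. These counts, and the 0 under the block, are therefore not read as results about the lists.

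For each member, the gene with the most alike pattern was sought over the 8 libraries, as the smallest root mean square (RMS) difference between centred log2 values among 12583 genes. Cd44 was closest to Iqgap1 (0.12), Cd9 to Dock9 (0.19), Nt5e to Akr1c14 (0.20), Mcam to Dusp9 (0.21) and Thy1 to Inhba (0.31). Alcam was closest to Nrg1 (0.35), Eng to Aspn (0.37), Cd34 to Stk39 (0.37) and Vcam1 to Itih2 (0.59). Ly6a had the least alike neighbour, H2-L (0.67), followed by Trim30a (0.69) and Ifit1 (0.71).

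The measure compares patterns around each gene's own mean and not levels. Inhba, a subunit of activin, was at 178, 76.1, 88.8 and 213 FPKM in 2D and at most 0.404 FPKM in 3D. H2-L, a class I histocompatibility gene, was at most 0.961 FPKM in 2D, at 0.997 FPKM in 3D mouse 1 and at 28.7 to 45.4 FPKM in the other 3D libraries. Like Ly6a, H2-L, Trim30a and Ifit1 were each low in 3D mouse 1 and high in the other 3D libraries. Having been picked for closeness to Ly6a in these same libraries, they are no separate finding. The search used 8 libraries that fall into separate culture groups, so that closeness for Thy1 and Cd9 mostly describes the difference between them. Cd44 and Cd34, with log2 fold changes of -0.29 and -0.23, were matched mainly on differences within the groups. Akr1c14 also shared the spread of Nt5e among the 2D libraries, at 0.159, 8.70, 42.6 and 0.982 FPKM in mice 2, 3, 4 and 5.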

How the data were processed

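The authors made directional, paired-end libraries from ribosome-depleted total RNA, mapped trimmed reads with TopHat (mm10, per the labels) and ran Cufflinks. Its gene-level FPKM values were deposited, without counts of reads. Genes at 0 in every library (5484 of 24346) were left out. Quantile normalization, which the study's methods name, was then applied, and log2(FPKM + 1) was fitted with limma 3.58.1 in R 4.3.3 (all 8 libraries, intensity trend, no covariates), with Benjamini-Hochberg adjustment over 18862 genes. The fit was tested on simulated data. The 18 alternatives were 2 other scalings, no trend, a pseudocount of 0.1, a minimum mean of 1 FPKM, mice 4 and 5 only, a mouse block or random effect, either pair of 2D libraries left out, and each library left out. Where labels do not say that cultures were separate beyond the mouse, p-values measure only the spread between libraries.

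The labels give the same mouse number to both libraries of mice 4 and 5, which pairs them. Their deviations from the culture means correlated at -0.05 (mouse 4) and -0.11 (mouse 5) over 12583 genes, and a random effect of the mouse at -0.04.

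For the depth, the smallest FPKM steps of 710 long genes were used (GENCODE M21, 1 transcript, 3000 nt or more). Per library, 69.9% to 81.1% of these values lay within 0.15 of a whole fragment count. Fragments per gene use its summed exon length and are approximate.

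The members, lists and tests were chosen with earlier results of these data known. Named are all members, the 3 largest rises and falls among genes past the threshold in each other list, defining markers at 0, and each member's nearest gene in pattern. Lum, Krt18, Twist1, Kdr, Csf1r, Adgre1, Itgam, Cspg4, Kcnj8, Abcc9, Ly6c1, Trim30a, Ifit1 and genes said to be so were named after their values were seen. Epididymal markers (4 of 8 tested) did not pass and summed to at most 4.12 FPKM. Motifs were searched on both strands of RefSeq promoters. The flow cytometry of the study was not analysed here.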

Additional observations from a re-analysis of the deposited data

How the results depend on the processing

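Thy1, Eng and Cd9 kept their call under each of 18 alternatives except the mouse block, and Vcam1 and Mcam under each except the block and the fit of mice 4 and 5 alone (adjusted p = 0.0947 for Vcam1). Under the mouse block, with 1 residual degree of freedom, 0 of the 10 members were lower and 0 higher in 3D, as were 0 and 0 of the 16 other surface markers and 0 and 0 of the 40 partners, though 2 and 2 members, 5 and 3 markers and 13 and 4 partners had an unadjusted p under 0.05. In the fit of mice 4 and 5 alone, 2 members and 9 partners were lower. Ly6a lost its call, so that 1 member was higher, in the values as deposited, with a common upper quartile, without the intensity trend and without the 2D libraries of mice 3 and 4. The fits without a pair of 2D libraries were chosen after seeing the data. Shares of all genes called are given for the main fit only, so that counts under the alternatives cannot be set against them. Without mice 3 and 4, 7 partners were higher, and without mice 2 and 5, 8 other markers were lower and 1 higher. With 1 library left out, the counts ranged from 4 to 5 members lower and from 1 to 2 higher, from 5 to 6 other markers lower and from 2 to 4 higher, and from 14 to 17 partners lower and from 4 to 5 higher.

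The log2 fold change of Cd34 (-0.23) turned to 0.014 as deposited, 0.037 with a common upper quartile, 0.18 with the block, 0.19 over mice 4 and 5, 0.58 without the 2D libraries of mice 3 and 4, 0.25 without that of mouse 4 and 0.058 without 3D mouse 7. It lay between -0.61 and 0.25 with 1 library left out. Cd44 turned to 0.023 without the 2D libraries of mice 2 and 5. The causes were not tested. Depth limits Thy1 and Eng in 3D, where 3 fragments correspond to 0.0644 to 0.0693 FPKM of Thy1 and 0.0477 to 0.0513 FPKM of Eng.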

Other observations

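Thy1 and Mcam lie on the same strand of chromosome 9, 85889 bp apart in GRCm38, with 5 protein-coding genes of the GENCODE annotation between them. Both were lower in 3D, and the genes between them were not alike. C1qtnf5, a secreted C1q-like protein, was at 10.5 to 22.4 FPKM in 2D and at 0.304 to 0.689 FPKM in 3D (log2 fold change -3.38, limma's adjusted p = 3.53e-05). Rnf26, a ubiquitin ligase, was at 18.9 to 29.1 FPKM in 2D and at 9.16 to 10.8 FPKM in 3D (-1.18, limma's adjusted p = 0.000461). Usp2, a deubiquitinase, overlapped between the cultures (-0.07, adjusted p = 0.925) and was highest in the 3D library of mouse 1, at 11.3 FPKM. Mfrp and Gm49380 were not tested. C1qtnf5 shares its transcribed stretch with Mfrp and Rnf26 with Gm49380, so that their values are uncertain. These genes were chosen for their position after the values of Thy1 and Mcam were known.

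Within 150 kb of Ly6a on either side, Ly6i was listed at 0 in the 2D libraries and at 0 to 0.485 FPKM in 3D, and Ly6c2 was at most 0.157 FPKM in any library. Ly6a and Ly6e thus held most of the transcripts measured from this cluster, with Ly6c1 at most 28.9 FPKM.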
